A study of Mus musculus with 24 samples.

Results

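Matricellular proteins are secreted into the extracellular matrix, where they act on cells and on other matrix proteins more than as load-bearing fibres. The 9 genes described here were chosen by name, and all 9 of 9 were measured among the 13499 genes of the table: Tnc, Ccn1, Ccn2, Postn, Cthrc1, Thbs2, Tgfbi, Fn1 and Sparc. Each was read by a single probe set, so no choice between probe sets of a gene was needed. The right lung lobe of 24 mice was profiled, 1 array per mouse, to look for genetic modifiers of the lung fibrosis that TGF-beta1 drives. Of the mice, 17 carried an inducible TGF-beta1 transgene (TG) and 7 were wild type (WT). All 24, WT included, drank water with doxycycline, which induces the transgene, for 2 weeks. The fibrosis-prone strains, per the series design, were C57BL/6J (2 TG and 2 WT mice), A/J (3 TG, 1 WT) and AKR/J (3 TG, 1 WT). The fibrosis-resistant strains were C3H, BALB/cJ and 129, the last labelled S129, with 3 TG mice and 1 WT mouse each. A code for fibrosis carried by each sample's label, when its printed key is applied, gives the opposite assignment. The design text was followed, and every prone minus resistant sign turns under the other reading. The sources used here do not give the promoter that drives the transgene, the founder line, or the age and sex of the mice, and the level of Tgfb1 itself was not analysed.

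TGF-beta binds a pair of cell-surface receptor kinases, which activate SMAD transcription factors, and it also drives the actin-linked SRF and YAP/TEAD programmes in fibroblasts. Matrix genes are among its best-known targets, and in scarred lung tenascin C, periostin, fibronectin and CTGF (the product of Ccn2) collect where myofibroblasts lay down collagen. Members also act back on the pathway: CTGF can increase its signalling, and fibronectin anchors the latent TGF-beta complex in the matrix.

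The lungs carried their defining epithelial transcripts in all 24 mice, with log2 intensities of 14.21 to 14.46 for Sftpc, 13.74 to 14.19 for Sftpa1, 13.41 to 14.14 for Scgb1a1 and 12.69 to 13.54 for Ager. Array medians lay between 7.759 and 7.835, and mice sharing a group (17 pairs) had correlations of 0.9916 to 0.9972 over genes. Values below are log2 intensities, on which a difference of 1 is a doubling, and the brightness of 1 gene's probe set is not set against another's. A difference passed the test when limma's Benjamini-Hochberg adjusted p over the 13499 genes was under 0.05. Adjusted p-values below come from that test unless another is named. Whole lung was measured, so more cells of a type and more RNA per cell cannot be told apart. The BALB/cJ WT mouse, the sole baseline of its strain, stood apart in platelet markers, with a list mean of 9.76 against 7.96 to 8.51 in the other 6 WT mice. Leaving it out leaves BALB/cJ with no WT mouse, so the TG against WT difference then rests on the remaining strains. On that footing 7 of 9 members, in place of 6, passed in TG against WT mice. Without the BALB/cJ strain 3 of 9, in place of 4, passed in resistant strains. The part of this WT mouse in the BALB/cJ differences was not tested. With 1 WT mouse in 5 of the 6 strains, the test lends a lone mouse the spread of the other groups, and p-values measure the spread between these mice.

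The start-site regions of 3 members are shown because they differ in the letters found there. They come from RefSeq (GRCm38.p6), cover the 250 bases upstream of an annotated start, and are written 5′ to 3′ on the gene's own strand. Capitals mark a match to one of 5 motifs. The SMAD box was searched as CAGAC, which reads GTCTG on the opposite strand. The TEAD site was searched as GGAATG, which reads CATTCC on the opposite strand. The AP-1 site was searched as TGANTCA. The CArG box of SRF and the TATA box (TATAAA) completed the set. The TATA box was searched on the gene's strand alone and the others on both strands, and no match overlapped another.

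Thbs2, chr17:14694263-14694512, minus strand, with the SMAD box 66 and 43 bases upstream of the start: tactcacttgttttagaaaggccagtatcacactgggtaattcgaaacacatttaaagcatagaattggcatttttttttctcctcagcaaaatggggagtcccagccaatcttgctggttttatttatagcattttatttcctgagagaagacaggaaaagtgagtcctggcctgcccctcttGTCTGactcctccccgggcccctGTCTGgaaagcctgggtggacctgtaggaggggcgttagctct

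Tnc, chr4:64046937-64047186, minus strand, with the SMAD box 70 and TATAAA 205 bases upstream of this start: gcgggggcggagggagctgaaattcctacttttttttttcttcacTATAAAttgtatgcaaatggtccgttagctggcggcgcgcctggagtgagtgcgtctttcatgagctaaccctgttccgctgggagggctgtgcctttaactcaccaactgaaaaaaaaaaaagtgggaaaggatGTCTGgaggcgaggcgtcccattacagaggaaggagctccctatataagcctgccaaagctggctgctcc

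Ccn1, chr3:145649986-145650235, minus strand, with the TEAD site 103 and TATAAA 25 bases upstream of the start: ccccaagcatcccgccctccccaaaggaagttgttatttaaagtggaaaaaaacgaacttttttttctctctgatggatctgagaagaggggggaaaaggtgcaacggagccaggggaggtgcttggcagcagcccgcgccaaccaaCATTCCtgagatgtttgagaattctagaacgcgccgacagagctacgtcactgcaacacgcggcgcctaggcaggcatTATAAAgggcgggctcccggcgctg

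Of the members, 6 had entries in the promoter table (Tnc, Ccn1, Postn, Thbs2, Tgfbi and Sparc), with 8 start-site windows between them, and Ccn2, Cthrc1 and Fn1 are named only. The SMAD box was present in 5 of the 8 windows, against 42.2% of 32851 windows of the same length. The TEAD site was in 1 of 8, that of Ccn1, against 12.6% of all windows. TATAAA was in 4 of 8 (both Tnc windows, which overlap and share the match, 1 of the Postn windows and that of Ccn1), against 7.59%. The AP-1 site (6.75% of all windows) and the CArG box (1.47%) were found in 0 of 8. These are letter matches in short windows and not measured binding sites.

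The first comparison asked what the transgene did to these genes over all strains. All 9 members had a higher mean in TG than in WT lungs after allowing for strain, and 6 of 9 passed the test, all higher: Tnc, Fn1, Ccn2, Sparc, Thbs2 and Postn. Over all genes 26.7% passed, 13.2% higher and 13.5% lower. The TG mean was above the WT mean in all 6 strains for 5 of 9 members (Tnc, Ccn2, Postn, Fn1 and Sparc), beside 10.8% of all genes. The median difference of the 9 members was 0.47, beside -0.00056 for all genes. Ccn1, Tgfbi and Cthrc1 did not pass over all strains. The TG mice stood wholly above the WT mice for Tnc and Sparc, 2 of 9, beside 1.02% of all genes. Every TG mouse stood above the WT mice of its own strain, in all 6 strains, for Tnc, Ccn2, Fn1 and Sparc, beside 4.02% of all genes. The plot of member values by mouse shows both patterns.

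**Figure D1:**
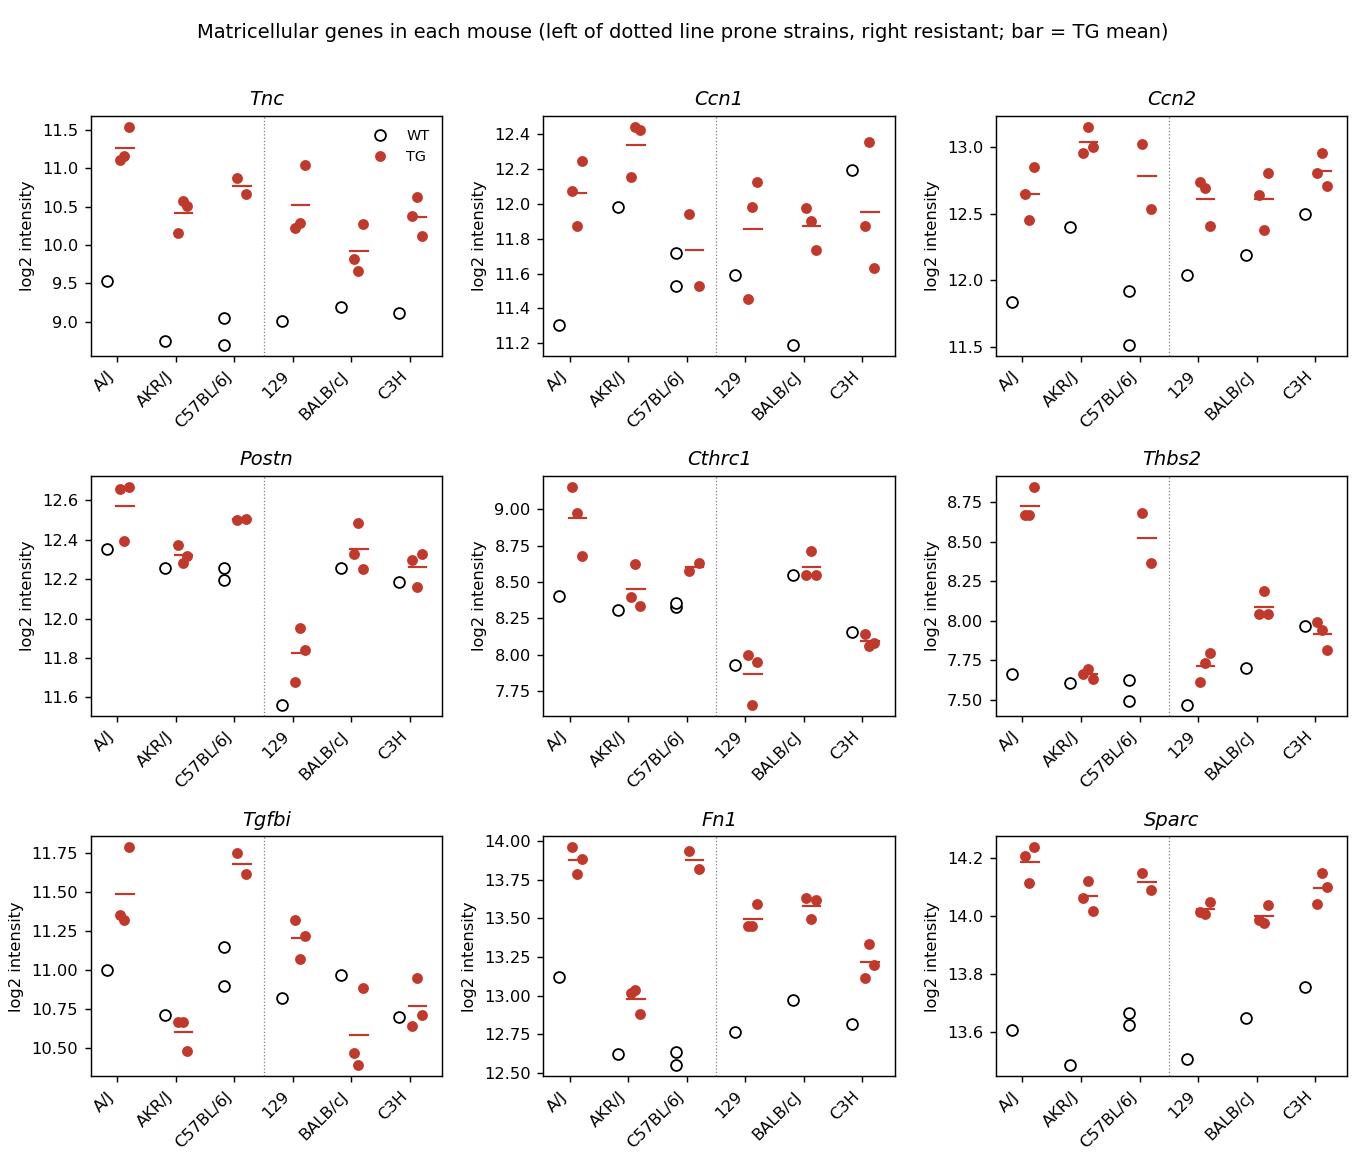
Log2 intensity of each member (1 panel each) in every mouse by strain, with TG mice as filled points, WT mice as open points, bars at TG means, and a dotted line between prone strains (left) and resistant strains (right). The TG and WT mice do not overlap for Tnc and Sparc, and for the other 7 members they do.

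Tenascin C, a large oligomeric glycoprotein that is scarce in resting adult lung and made during repair, changed most among the members. The 7 WT mice ranged from 8.70 to 9.53 (median 9.04) and the 17 TG mice from 9.66 to 11.53 (median 10.51). By strain, the TG mice read 11.11, 11.16 and 11.53 in A/J against 9.53 in the WT mouse. In C57BL/6J they read 10.88 and 10.66 against 9.04 and 8.70. In AKR/J they read 10.15, 10.57 and 10.51 against 8.74. The 129 mice gave 10.22, 10.28 and 11.04 against 9.005, the third mouse well above the other two, and the C3H mice gave 10.38, 10.62 and 10.11 against 9.12. BALB/cJ had the lowest TG values, 9.82, 9.66 and 10.27, against 9.20 in its WT mouse. Over all strains Tnc rose by 1.49 ± 0.13 (SE), or 2.81-fold (adjusted p = 6e-08). Within single strains it passed the test in C57BL/6J (1.90), A/J (1.74), AKR/J (1.67) and 129 (1.51), and did not in C3H (1.25, adjusted p = 0.061) or BALB/cJ (0.72, adjusted p = 0.25).

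The CCN proteins are small, modular, heparin-binding ligands of integrins, and Ccn1 (CYR61) and Ccn2 (CTGF) are both standard targets of YAP and of TGF-beta. Their probe sets did not behave alike. Ccn2 read 11.51 to 12.49 in WT mice (median 12.04) and 12.37 to 13.15 in TG mice (median 12.74), and 14 of the 17 TG mice were above every WT mouse. The difference was 0.66 ± 0.09, or 1.58-fold (adjusted p = 1.4e-05). The largest step was in C57BL/6J, where the TG mice read 13.03 and 12.53 and the WT mice 11.92 and 11.51 (1.07). A/J came next with 12.65, 12.45 and 12.85 against 11.84 (0.81), and these were the strains in which Ccn2 passed alone. The AKR/J TG mice had the highest mean Ccn2 of the TG groups, at 12.95, 13.15 and 13.003 against 12.40 in its WT mouse (0.64, not passing).

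Ccn1 overlapped broadly between the genotypes, at 11.19 to 12.20 in WT mice (median 11.59) and 11.46 to 12.44 in TG mice (median 11.98), with 4 of 17 TG mice above every WT mouse. Its difference of 0.31 ± 0.12, 1.24-fold, had an adjusted p of 0.051 and a 95% interval of 0.07 to 0.55. The strains went different ways in value: A/J gained 0.76 and BALB/cJ 0.68, while C3H read 11.87, 12.35 and 11.63 in TG mice against 12.20 in WT (-0.24), and none passed alone. Leaving out a single mouse brought Ccn1 under the threshold in 7 cases (TG 129 1, TG AKR/J 1, TG C3H 1, TG C3H 3, WT C3H 1, WT C57BL/6J 1 or TG C57BL/6J 2, adjusted p from 0.010), as did leaving out the C3H mice together (0.41, adjusted p = 0.0069). The C3H WT mouse is the sole baseline of its strain, so leaving it out also took C3H out of the difference. That case and the exclusion of the C3H mice together gave the same value (0.41) and are not separate. The Ccn1 result thus depends on which mice are counted.

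Fibronectin (Fn1) is the adhesive glycoprotein on which collagen is assembled, and it is described with the matricellular genes although it also forms fibrils. WT mice read 12.55 to 13.12 (median 12.77) and TG mice 12.88 to 13.96 (median 13.50), and 13 of 17 TG mice were above every WT mouse. The overall rise was 0.72 ± 0.08, or 1.65-fold (adjusted p = 8.1e-07). C57BL/6J showed the largest step, from 12.55 and 12.64 in its WT mice to 13.93 and 13.82 in its TG mice (1.28, or 2.43-fold). The A/J mice read 13.96, 13.79 and 13.88 against 13.12 (0.76), the 129 mice 13.45, 13.45 and 13.59 against 12.77 (0.73), and the BALB/cJ mice 13.63, 13.50 and 13.62 against 12.97 (0.61). These 4 strains passed alone, and C3H (0.40, adjusted p = 0.10) and AKR/J did not. AKR/J had the smallest step: its TG mice, at 13.02, 13.04 and 12.88, were below the WT mouse of A/J.

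Sparc (osteonectin) is a collagen-binding glycoprotein that helps procollagen leave the cell surface and mature into fibres. WT mice read 13.48 to 13.76 (median 13.62) and TG mice 13.97 to 14.24 (median 14.06), with no overlap. The rise was 0.48 ± 0.03, or 1.39-fold (adjusted p = 2e-09), and Sparc was the member that passed within each of the 6 strains, at 0.58 in A/J and AKR/J, 0.52 in 129, 0.48 in C57BL/6J, 0.35 in BALB/cJ and 0.34 in C3H. The C3H call was narrow (adjusted p = 0.041), and it was lost when any 1 of 14 mice was left out (TG 129 1 or 2, TG A/J 1, TG AKR/J 1 or 3, TG BALB/cJ 1 or 2, any TG C3H, or any C57BL/6J mouse), with adjusted p up to 0.13. The brightest genes of the arrays read 14.64 to 14.75, so Sparc lay near the top of the scale, and what this does to the size of its steps was not tested.

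Thrombospondin 2 (Thbs2), an inhibitor of angiogenesis that also governs collagen fibril assembly, split the strains. WT mice read 7.47 to 7.97 (median 7.63) and TG mice 7.61 to 8.84 (median 7.99). In A/J the TG mice read 8.67, 8.67 and 8.84 against 7.66, and in C57BL/6J 8.68 and 8.36 against 7.49 and 7.63. These 5 TG mice stood above all other mice of the study. BALB/cJ came next with 8.04, 8.19 and 8.04 against 7.70. In 129 the values were 7.61, 7.73 and 7.80 against 7.47, in AKR/J 7.66, 7.70 and 7.63 against 7.61, and in C3H 7.99, 7.94 and 7.82 against 7.97. Thbs2 rose by 1.06 in A/J (2.09-fold) and 0.96 in C57BL/6J (1.95-fold), and by 0.47 ± 0.10 over all strains (adjusted p = 0.0014). The other 4 strains, at 0.39 in BALB/cJ, 0.25 in 129, 0.06 in AKR/J and -0.05 in C3H, did not pass.

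Periostin (Postn), which binds collagen and cross-linking enzymes and is made by activated fibroblasts, moved little. WT mice read 11.56 to 12.35 (median 12.25) and TG mice 11.68 to 12.67 (median 12.33). Its mean was higher in TG mice in all 6 strains, by 0.07 to 0.28, with no strain passing alone, and the overall difference was 0.17 ± 0.05, or 1.13-fold (adjusted p = 0.0077). That call was lost with strain as a random block (0.16, adjusted p = 0.13) and without the C57BL/6J mice (adjusted p = 0.072).

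Tgfbi, a TGF-beta-induced adhesion protein of the same fasciclin family as periostin, and Cthrc1, a collagen-triple-helix protein of activated fibroblasts, did not pass over all strains. Tgfbi read 10.70 to 11.15 in WT mice (median 10.90) and 10.39 to 11.78 in TG mice (median 10.95), a difference of 0.21 ± 0.10 with a 95% interval of -0.01 to 0.42 (adjusted p = 0.16). The TG mice spread both ways around the WT mice. In C57BL/6J they read 11.75 and 11.61 against 11.15 and 10.90 (0.66, adjusted p = 0.014), and in BALB/cJ 10.47, 10.39 and 10.89 against 10.97 (-0.38). The C57BL/6J call was lost without WT mouse 2 or TG mouse 1 of that strain. Without its WT mouse, BALB/cJ dropped out of the TG against WT difference of Tgfbi. That difference, over the remaining strains, then passed (0.32, adjusted p = 0.021). Cthrc1 read 7.93 to 8.55 in WT mice (median 8.33) and 7.65 to 9.15 in TG mice (median 8.55), a difference of 0.15 ± 0.07 with a 95% interval of 0.01 to 0.30 (adjusted p = 0.12). A/J was the strain in which Cthrc1 passed, with 9.15, 8.98 and 8.68 against 8.40 (0.53, adjusted p = 0.027), a call lost without A/J TG mouse 1 or 2 (adjusted p up to 0.079).

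Counted by strain, the members that passed, all of them higher in TG mice, were 6 of 9 in A/J, 6 in C57BL/6J, 3 in 129, 2 in AKR/J, 2 in BALB/cJ and 1 in C3H. By the same test, the share of all genes that were higher in TG mice was 6.80% in A/J, 6.96% in C57BL/6J, 1.56% in 129, 1.54% in AKR/J, 0.993% in BALB/cJ and 0.489% in C3H. The order of the strains by members that passed thus followed their order over all genes closely. A/J and C57BL/6J shared Tnc, Ccn2, Thbs2, Fn1 and Sparc, and differed in that Cthrc1 passed in A/J and Tgfbi in C57BL/6J. A C57BL/6J estimate rests on 2 WT mice, and the others on 1.

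**Figure D2:**
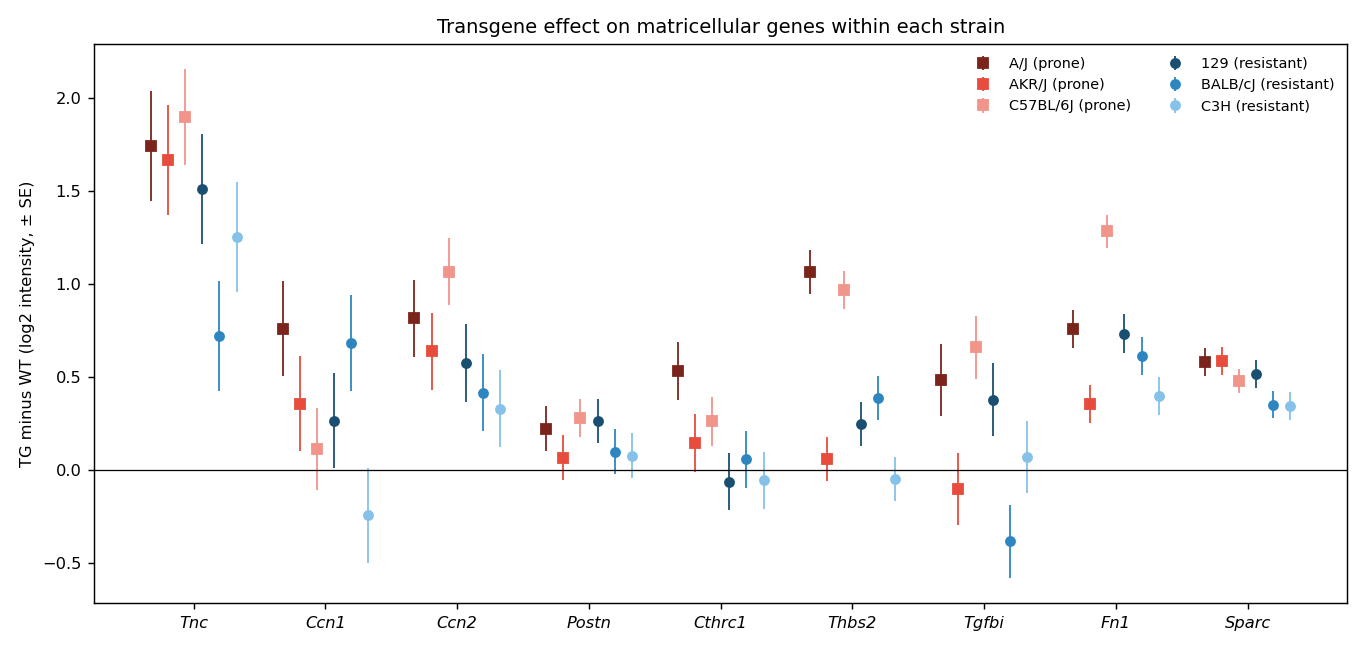
TG minus WT difference in log2 intensity of each member in each of the 6 strains, with bars for ± SE from the 12-group limma fit, squares for prone and circles for resistant strains. Sparc is above 0 and passes in all 6 strains, while Thbs2 ranges from -0.05 in C3H to 1.06 in A/J and Tgfbi from -0.38 in BALB/cJ to 0.66 in C57BL/6J.

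The series is built on prone and resistant strains, so the effect of the transgene was next averaged within each set. In the 3 prone strains 9 of 9 members passed, all higher (23.5% of all genes passed in either direction, 1621 of them higher), with 1.77 for Tnc, 0.84 for Ccn2, 0.80 for Fn1, 0.70 for Thbs2, 0.55 for Sparc, 0.41 for Ccn1, 0.35 for Tgfbi, 0.31 for Cthrc1 and 0.19 for Postn. In the 3 resistant strains 4 of 9 passed, all higher (10.7% of all genes passed, 4.92% higher): Tnc at 1.16, Fn1 at 0.58, Ccn2 at 0.44 and Sparc at 0.40. Thbs2 in resistant strains was 0.20 (adjusted p = 0.082, but 0.32 and 0.035 without the C3H mice), and Cthrc1 and Tgfbi were at -0.02 and 0.02. Among the prone calls, those of Ccn1 (adjusted p = 0.046) and Postn (0.049) were the weakest. The Ccn1 call was lost without any 1 of 12 mice (TG 129 2, TG A/J 1 or 3, TG AKR/J 2 or 3, any TG BALB/cJ, TG C3H 1, either WT C57BL/6J or TG C57BL/6J 1), with adjusted p up to 0.13. The Postn call was lost without any 1 of 13 (TG 129 3, TG A/J 1 or 3, any TG AKR/J, TG BALB/cJ 1, TG C3H 1 or 3, or any C57BL/6J mouse), up to 0.097, and that of Tgfbi without WT C57BL/6J 2 or TG C57BL/6J 1, up to 0.073. With the replicate number as a block, the adjusted p was 0.10 for Ccn1 and 0.099 for Postn. Without the A/J mice, or without the C57BL/6J mice, 5 of 9 passed, and the 4 lost were Ccn1, Postn, Cthrc1 and Tgfbi in both cases. Without the AKR/J mice 8 of 9 passed, with Ccn1 lost (adjusted p = 0.090). Ccn2 in resistant strains (adjusted p = 0.025) was lost without any 1 of the 3 strains, with adjusted p up to 0.20.

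The difference between the sets was itself tested. All 9 members had the larger value in prone strains, and 1 of 9 passed, Thbs2 (0.474% of all genes passed). For Thbs2 the prone effect exceeded the resistant effect by 0.50 ± 0.09, with a 95% interval of 0.30 to 0.70 (adjusted p = 0.039). Tnc had a larger difference with a wider error (0.61 ± 0.24, interval 0.11 to 1.11, adjusted p = 0.32). For the others the differences were 0.40 for Ccn2, 0.33 for Cthrc1 and Tgfbi, 0.22 for Fn1, 0.17 for Ccn1, 0.14 for Sparc and 0.04 for Postn, none past the test. The median of the 9 members was 0.33, beside 0.0096 for all genes. The shared direction did not hold without every strain. Ccn1 read -0.0009 without A/J and -0.065 without C3H, and without C57BL/6J Fn1 read -0.025 and Postn -0.0021. The Thbs2 value hides a disagreement within the prone set, since AKR/J (0.06) did not share the step of A/J and C57BL/6J. Without the AKR/J mice the Thbs2 difference was 0.82 ± 0.11 (adjusted p = 0.0064), and Fn1 passed too at 0.44 ± 0.09 (adjusted p = 0.022). Without any other strain Thbs2 no longer passed (0.32 without A/J to 0.60 without BALB/cJ, adjusted p up to 0.27). Leaving out 1 mouse ended the call in 7 cases (TG 129 2, TG AKR/J 1, TG BALB/cJ 1 or 2, TG C3H 1, WT C57BL/6J 1 or TG C57BL/6J 1, adjusted p up to 0.065), and so did the replicate number as a block (adjusted p = 0.066). With strains as the unit, 3 effects against 3, the exact permutation test (two-sided) gave p = 0.3 for Thbs2 and 0.1 for Tnc, Ccn2 and Cthrc1, the smallest that 3 against 3 allows.

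**Figure D3:**
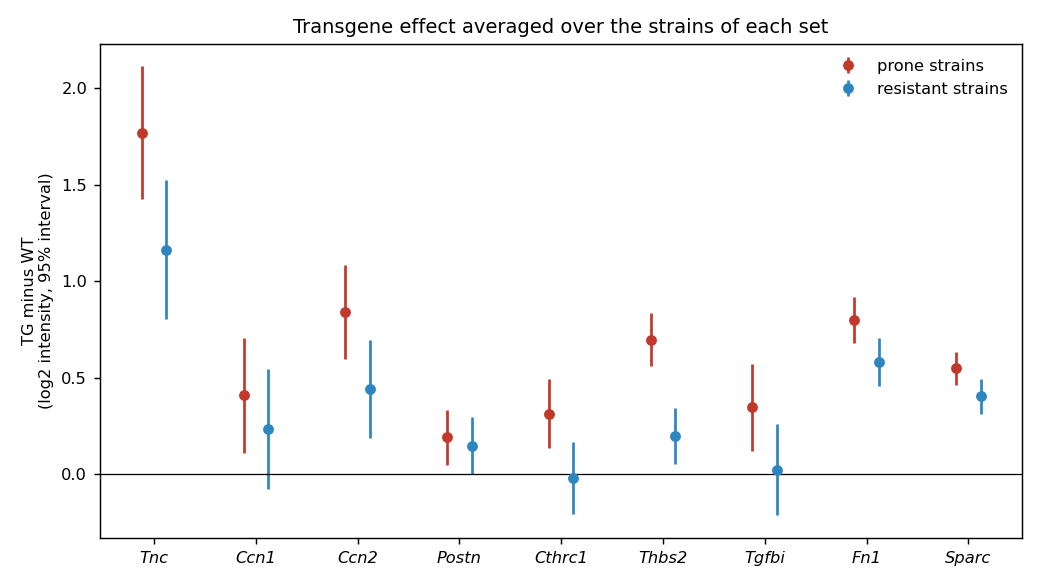
TG minus WT difference in log2 intensity averaged over the 3 prone and the 3 resistant strains, by member, with 95% confidence intervals from the 12-group limma fit. The prone value is the higher for all 9 members, and Thbs2, at 0.70 against 0.20, is the member whose difference passed the test.

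Whether the effect varied among the 6 strains in any pattern was asked with a single test over strains. It passed for 2 of 9 members, Thbs2 (adjusted p = 0.0052) and Fn1 (adjusted p = 0.012), beside 1.34% of all genes. The Fn1 call was lost without WT mouse 1 or TG mouse 1 of C57BL/6J (adjusted p up to 0.066). In both genes the low end included AKR/J and C3H and the high end A/J and C57BL/6J.

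Levels among the TG mice themselves differed between strains for 6 of 9 members (31.4% of all genes passed), namely Thbs2, Fn1, Cthrc1, Tgfbi, Postn and Tnc. For Tnc the order of TG means was A/J (11.27), C57BL/6J (10.77), 129 (10.52), AKR/J (10.41), C3H (10.37) and BALB/cJ (9.92), and A/J alone stood clear of its neighbour in that order. For Thbs2, A/J (8.73) and C57BL/6J (8.52) overlapped, BALB/cJ (8.09) and C3H (7.92) each stood clear, and 129 (7.71) and AKR/J (7.66) overlapped at the bottom. For Fn1 the order was C57BL/6J and A/J (both 13.88), then BALB/cJ (13.58) with 129 (13.50), then C3H (13.22), with AKR/J (12.98) lowest and clear of the rest. Tgfbi was highest in C57BL/6J (11.68) and A/J (11.49), stood clear in 129 (11.20), and overlapped in C3H (10.77), AKR/J (10.61) and BALB/cJ (10.58).

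Cthrc1 was highest and clear in A/J (8.94), overlapped in C57BL/6J (8.60), BALB/cJ (8.60) and AKR/J (8.45), and was lower in C3H (8.10) and lowest in 129 (7.87). Postn was highest in A/J (12.57) and C57BL/6J (12.50), overlapped in BALB/cJ (12.35), AKR/J (12.33) and C3H (12.26), and was lowest in 129 (11.82). For Ccn1 and Ccn2, both highest in AKR/J (12.34 and 13.04), and for Sparc, each strain overlapped its neighbour in the order. A/J and C57BL/6J thus held the top pair of places for Tnc, Thbs2, Fn1, Tgfbi, Cthrc1 and Postn. They also did for Sparc (14.19 and 14.12), whose strain differences did not pass. Strains can carry sequence variants under a probe, and the part of such variants in these strain differences was not tested.

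Grouped by the design's sets, TG prone mice were above TG resistant mice for 6 of 9 members (11.1% of all genes passed, 6.44% higher): Tnc by 0.55, Cthrc1 by 0.47, Tgfbi by 0.41, Thbs2 by 0.40, Postn by 0.32 and Fn1 by 0.15. The mice of the sets overlapped for all 9 members (0.126% of all genes had no overlap). With strain means as the unit, the exact permutation test gave p = 0.2 to 0.6 for these 6, where 0.1 is the smallest possible. Without the A/J mice 2 of 9 passed, Cthrc1 and Postn. Postn was lost without the 129 mice (adjusted p = 0.087), Tnc without BALB/cJ (0.094), Tgfbi without C57BL/6J (0.19) and Fn1 without C3H (0.71). The Fn1 call (adjusted p = 0.041) was lost without any 1 of 10 mice (TG 129 1 or 2, TG A/J 1 or 3, TG AKR/J 1 or 2, TG BALB/cJ 2, TG C3H 1 or 3, or TG C57BL/6J 1, adjusted p up to 0.144) and with the replicate number as a block (adjusted p = 0.065), and its value was about 0 (-0.0034 and -0.0037) without A/J or without C57BL/6J.

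In the WT mice, 0 of 9 members differed between prone and resistant strains (0.741% of all genes passed), with values from -0.26 for Ccn2 to 0.28 for Postn. Strain differences among the 7 WT mice passed for Postn (adjusted p = 0.020) and Fn1 (0.042), beside 5.45% of all genes. The Fn1 call was lost without any 1 of 9 mice (TG 129 2, TG AKR/J 1, TG BALB/cJ 1 or 3, TG C3H 3, or any C57BL/6J mouse), with adjusted p up to 0.116. For Postn, the 129 WT mouse read 11.56, and the other 6 WT mice read 12.19 to 12.35. The 129 TG mice, at 11.68, 11.95 and 11.84, were also the lowest TG mice for Postn.

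The labels also mark TG lungs of AKR/J and BALB/cJ as emphysematous and those of 129 and C3H as not, and leave the field unfilled for A/J and C57BL/6J. Between these pairs of strains 3 of 9 members passed (7.15% of all genes passed): Cthrc1 was higher with emphysema by 0.54 (adjusted p = 0.00044), Postn was higher by 0.30 (0.0060), and Tgfbi was lower (-0.39, adjusted p = 0.022). The Cthrc1 values did not overlap, at 8.34 to 8.71 in AKR/J and BALB/cJ against 7.65 to 8.14 in 129 and C3H, as was so for 2.72% of all genes in either direction. The Tgfbi call was lost without TG AKR/J 3, TG BALB/cJ 1 or 2, or TG C3H 2 (adjusted p up to 0.060). The WT mice of AKR/J and BALB/cJ read 8.31 and 8.55 for Cthrc1, against 7.93 in 129 and 8.15 in C3H. For Postn they read 12.26 and 12.26 against 11.56 and 12.19, and for Tgfbi 10.71 and 10.97 against 10.82 and 10.70. The Cthrc1 gap thus had the same direction in the WT mice, with 1 mouse per strain. Strain differences in Cthrc1 among WT mice did not pass (adjusted p = 0.26), and this WT gap was not tested alone. The TG minus WT difference of Cthrc1 was 0.14, 0.06, -0.06 and -0.06 in AKR/J, BALB/cJ, 129 and C3H. Among the WT mice of these strains, 129 and C3H were also the lowest for Postn. With 2 strains on each side, the label and the strain cannot be told apart.

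Mice of 1 strain also differed from each other, and the members were set against one another within strains, using the deviations of the 17 TG mice from their strain means. Over the 36 pairs of members Pearson's r ranged from -0.329 to 0.831 (median 0.302), with 25 pairs positive and 11 negative. The exact permutation test, over the 15552 rearrangements of mice within strains, gave an unadjusted p under 0.05 for 7 pairs and an adjusted p under 0.05 for 0. Fn1 and Sparc had the highest r, 0.831 (p = 0.0024, adjusted p = 0.084, Spearman's rho 0.828), and 0.776 without the 2 mice farthest from the median. Tgfbi and Sparc followed at 0.749 (p = 0.0047, adjusted p = 0.084, rho 0.752), and 0.703 without the 2 farthest. Postn and Cthrc1 stood apart, with 5 and 7 negative values respectively among their 8 pairs.

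**Figure D4:**
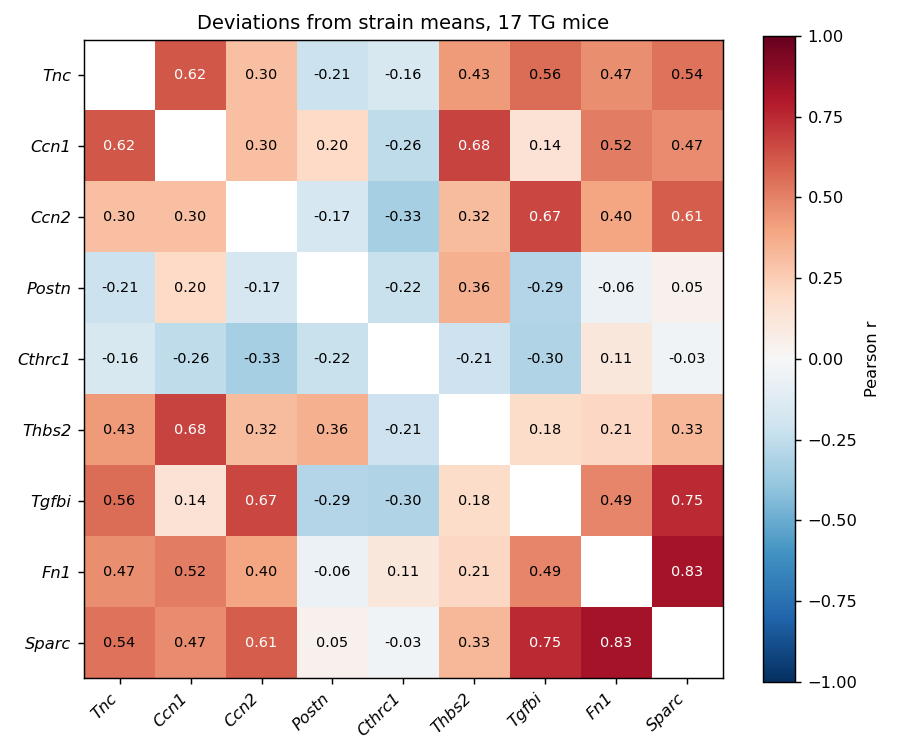
Pearson's r between members over 17 TG mice, each value taken as its deviation from the mean of the TG mice of its strain, on a colour scale from -1 to 1. Fn1 with Sparc (0.83) and Tgfbi with Sparc (0.75) are highest, and most values for Cthrc1 and Postn are below 0.

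By the rule of highest r over the 24 mice, the genes most like each member were Cstb, Rab34 and Sdc1 for Tnc (0.939, 0.933 and 0.93), Serpina10, Tmem37 and Gpr153 for Ccn2 (0.884, 0.871 and 0.829), and Itgb6, Mrc2 and Ppic for Sparc (0.971, 0.951 and 0.95). They were Lhfpl2, C1qb and Emilin1 for Thbs2 (0.918, 0.898 and 0.896), Vstm4, Sertad4 and Nectin4 for Fn1 (0.917, 0.912 and 0.91), and Khdrbs3, Pros1 and Clu for Tgfbi (0.887, 0.833 and 0.823). Postn was most like Mapre1, G2e3 and Anxa8 (0.904, 0.879 and 0.872), Cthrc1 most like Scube1, Macc1 and Tmem267 (0.855, 0.822 and 0.799), and Ccn1, with the lowest values, most like Fbxo10, Pemt and Phpt1 (0.737, 0.736 and 0.735). These points share strain and genotype, and the values are descriptions.

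Ccn1 changed company when each mouse was taken as its deviation from its own group's mean, over the 19 mice not alone in their group. Its nearest genes were then Fos (r = 0.90) and Egr1 (0.871), both immediate-early genes that respond to growth factors and to handling of tissue within minutes, with Vcp (0.887). In the 129 TG mice Ccn1 read 11.46, 11.98 and 12.12, Fos 8.31, 8.94 and 9.37, and Egr1 9.57, 10.31 and 10.65. In the C3H TG mice Ccn1 read 11.87, 12.35 and 11.63, Fos 8.29, 9.11 and 8.16, and Egr1 9.59, 10.22 and 9.44. The 3 genes ordered the mice alike in these 2 of the 5 TG groups of 3 mice, and differently in A/J, AKR/J and BALB/cJ. Fos and Egr1 were picked for their correlation with Ccn1 over these same mice, so this is a description. Fos read 7.56 to 8.98 in WT mice and 8.16 to 9.37 in TG mice, and its part in the Ccn1 values was not tested.

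The other matricellular genes of a named list (further CCN, thrombospondin, tenascin and SPARC-family genes, fibulins and galectins) gave 10 higher and 1 lower of 20 measured over all strains, with a median difference of 0.30 beside -0.00056 for all genes. Ccn4 (WISP1) rose by 1.08 ± 0.08, Fstl1, a SPARC-family protein, by 0.89 ± 0.11 and Thbs3 by 0.73 ± 0.10, while Tnxb, the tenascin of healthy connective tissue, fell by 0.81 ± 0.10. Over all strains 13.2% of all genes rose and 13.5% fell. In prone strains 12 rose and 1 fell (1621 of all 13499 genes rose and 11.5% fell). In resistant strains 7 rose and 1 fell (4.92% of all genes rose and 5.78% fell). Of 17 measured receptors of matricellular proteins (integrins, syndecans and others), 7 rose and 5 fell. Itgb6, whose integrin activates latent TGF-beta on epithelium and binds tenascin C and fibronectin, rose by 1.48 ± 0.11, Itgb3 by 0.77 ± 0.08, Sdc1 by 0.67 ± 0.06 and Itgb8 by 0.66 ± 0.11.

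Fibrillar collagens and their processing enzymes Lox and Bmp1 gave 6 higher and 0 lower of 7 measured, led by Lox (1.23), Col1a1 (1.02), Col3a1 (0.97) and Col5a2 (0.77). A list of regulators and targets of YAP/TEAD and SRF together gave 6 higher and 4 lower of 15. Without the BALB/cJ WT mouse, and so without BALB/cJ in the difference, it gave 5 and 2. The 4 of largest change over all strains were Crim1 at -0.36, Ajuba at 0.33, Wwtr1 (TAZ, a regulator) at 0.24 and Acta2 at -0.20. The median of that list was 0.05. Acta2, a smooth muscle actin that myofibroblasts also make, was thus lower in TG lungs while Tnc, Ccn2 and Col1a1 were higher. Whole lung does not tell smooth muscle and myofibroblasts apart as the source of Acta2.

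**Figure D5:**
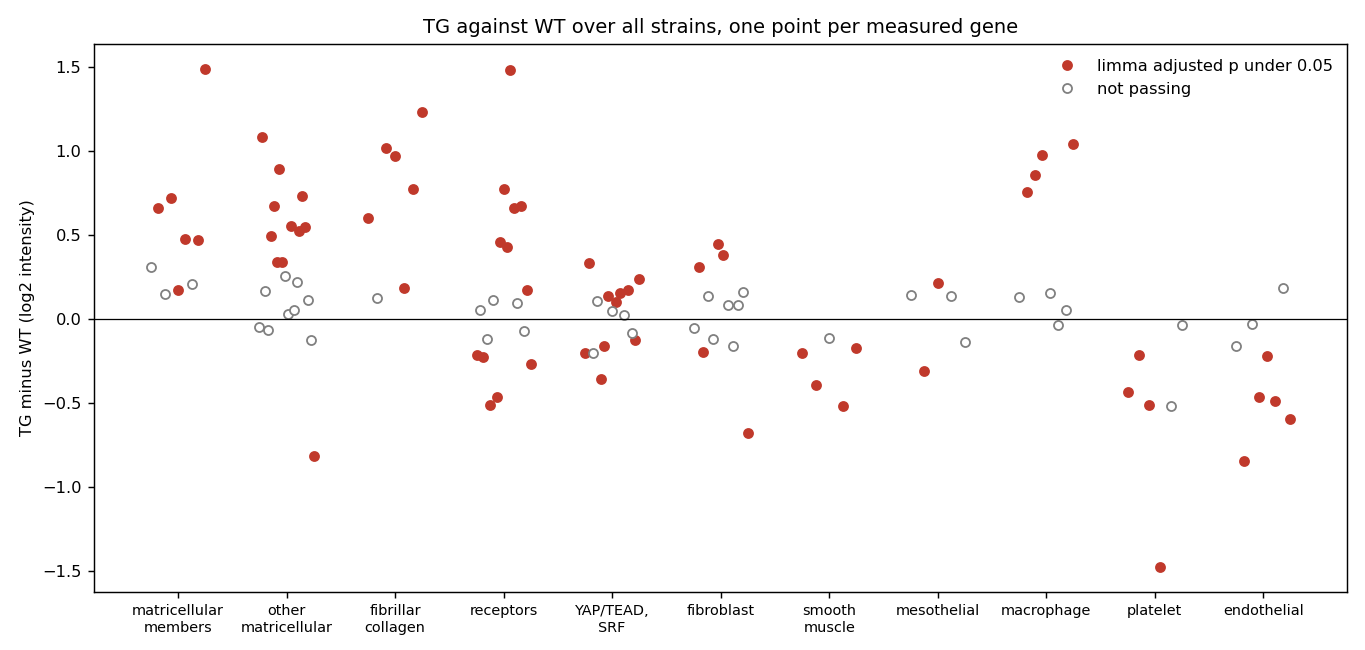
TG minus WT difference over all strains, in log2 intensity, for the genes of 11 lists, 1 point per gene, filled where the gene passed the test. The members and the fibrillar collagens lie mostly above 0, with medians of 0.47 and 0.77, and the smooth muscle, platelet and endothelial lists mostly below.

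Markers of the cells that can make these proteins, and of other lung cells, were also compared between the genotypes. Over all genes 13.2% were higher and 13.5% lower in TG mice. Of 12 fibroblast markers, 3 rose and 2 fell (Lum 0.45, Tcf21 -0.68), and the mean of the list was 10.55 to 10.92 in WT mice and 10.67 to 10.98 in TG mice. Smooth muscle markers gave 0 higher and 4 lower of 5 (Myh11 -0.52, Des -0.39), endothelial markers 0 and 5 of 8 (Ednrb -0.85, Tek -0.60), and mesothelial markers 1 and 1 of 5. Platelet markers gave 0 higher and 4 lower of 6 (Ppbp -1.47, Pf4 -0.51). The list mean was 9.76 in the BALB/cJ WT mouse, 7.96 to 8.51 in the other 6 WT mice and 7.66 to 8.08 in TG mice. Without the BALB/cJ WT mouse, and so without BALB/cJ in the difference, 3 of 6 were lower (Ppbp -0.92, Pf4 -0.28). Epithelial markers gave 1 higher and 2 lower of 8 (Scgb3a2 -0.65). Again without BALB/cJ in the difference, its WT mouse left out, epithelial markers gave 0 higher and 2 lower, and smooth muscle markers 0 higher and 3 lower. Macrophage markers gave 4 higher and 0 lower of 8 (Ms4a7 1.04, C1qc 0.97).

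The macrophage list differed between strains in the TG mice. Its mean log2 intensity was 10.12 in A/J, 9.97 in C57BL/6J, 9.495 in BALB/cJ, 9.39 in 129, 9.34 in C3H and 9.04 in AKR/J, with WT mice at 8.91 to 9.36. A/J, C57BL/6J and BALB/cJ held the first 3 places and AKR/J the last for Thbs2 and Fn1 as well, whereas for Tgfbi 129 followed C57BL/6J and A/J, and BALB/cJ was last. The fibrillar collagen list read 10.17 to 10.44 in TG A/J, 10.25 to 10.46 in TG C57BL/6J, 9.79 to 10.01 in the TG resistant strains, 9.71 to 9.87 in TG AKR/J and 9.21 to 9.51 in WT mice. Both lists were lowest in AKR/J among the prone strains, as were all members but Ccn1 and Ccn2, which were highest in AKR/J. Over the 6 strains Tnc and Sparc were lowest in BALB/cJ, and Cthrc1 and Postn in 129. The part of macrophages or other cell types in the values of the members was not tested.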

How the data were processed

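The table the authors deposited holds 1 value per probe set and array, between 3.41 and 14.75, taken here as log2 intensity because of that range. The labels' protocols give biotin labelling with the Ambion WT Expression Kit. Log base, normalisation, software and genome build: not given in the sources used here. The table was held in part: 25285 probe sets, of which 1 was incomplete and left out. Of these, 14539 had 1 gene symbol in the platform annotation, 781 several and 9964 none here, and 14480 matched RefSeq by Entrez identifier. A gene with several probe sets was represented by that of highest mean, which left 13499 genes.

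Tests were two-sided, in limma 3.58.1 (R 4.3.3, statmod 1.5.0), with tables and plots from Python 3.11.15. TG against WT used strain plus genotype, and all other comparisons were contrasts of 12 group means. Differences are given ± SE. The scripts were tested on simulated data. The number of arrays limits the precision. No batch is given in the sources used here.

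The members and the gene lists were chosen with earlier results of these data known. Each list is shown by up to 4 genes of largest change that passed, and each member by its 3 most alike genes.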

Additional observations from a re-analysis of the deposited data

Results flagged for a closer look

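Among the WT mice, 1 stood far from the other 6 for Postn: the 129 mouse read 11.561 (log2 intensity), and the next lowest read 12.186. In all, 27 groups of mice and members were looked at for a distant mouse, and chance marks about 1 in 20. The transgene's effect on Thbs2 was larger in prone than in resistant strains by 0.50 (limma, adjusted p = 0.039). The effect also varied among the 6 strains for Thbs2 (adjusted p = 0.0052) and Fn1 (adjusted p = 0.012).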

How the results depend on the processing

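Members that passed were counted again under each alternative. The replicate numbers in the labels gave no sign of pairing: over 52 pairs of mice with the same number, deviations correlated at -0.154 to 0.128, and 7 pairs were over 0.1. Lone WT mice have no deviation, so pairing of TG with WT mice within a strain could be looked at in C57BL/6J alone (r = 0.058). For TG against WT the block was strain and replicate number together, and 6 members passed. In that fit, TG mice without a WT mouse of the same strain and number did not bear on the difference. For the other comparisons the block was the number alone. Members that passed were then 7 in prone and 4 in resistant strains, and 0 for the difference of effects (1 without the block). They were 5 for TG prone against TG resistant, 6 among TG strains, 3 for emphysema and 6 in C57BL/6J. Array weights gave 2 members in C3H in place of 1, and quantile normalisation gave 1 for WT strain differences in place of 2. Leaving out each mouse in turn gave 0 to 2 members in C3H, 0 to 1 for the difference of effects, 1 to 2 for strain dependence and 1 to 2 for WT strain differences. Leaving out each strain in turn, chosen after seeing the data, gave 5 members in prone strains in place of 9 without A/J or without C57BL/6J, and 2 in place of 6 for TG prone against TG resistant without A/J. For the difference of effects it gave 2 members without AKR/J and 0 without any other strain. The sign of Fn1 turned for TG prone against TG resistant, to -0.0034 without A/J and -0.0037 without C57BL/6J. For the difference of effects the sign turned for Ccn1 without A/J or without C3H, and for Fn1 and Postn without C57BL/6J. The cause of these changes was not tested.

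Of 2358 values of single members recomputed, 2223 kept their call, 118 lost it, 15 gained it and 2 turned sign. Members that had not passed entered this count only for TG against WT and for the tests among strains (TG levels, WT levels and strain dependence). The sign turns in the difference of effects are therefore not in it. Counts over all genes moved most for the difference of effects, from 64 to 289 with array weights, 14 with the block, and 4, 8, 363, 1, 15 and 5 without 129, A/J, AKR/J, BALB/cJ, C3H and C57BL/6J. For TG against WT, the block of strain and number together took the count from 3601 to 1854, with only the paired mice bearing on the difference. Array weights moved WT prone against resistant from 100 to 193, emphysema from 965 to 1461, the effect in 129 from 398 to 635, in AKR/J from 285 to 429 and in BALB/cJ from 305 to 618, WT strain differences from 736 to 1290 and strain dependence from 181 to 586. Leaving out a strain moved the prone count from 3172 to 2009 (A/J) or 1823 (C57BL/6J), the resistant count from 1444 to 615 (129) or 700 (BALB/cJ), and TG prone against TG resistant from 1503 to 2335 (AKR/J). Precision is limited by the lone WT mouse in 5 strains, and Sparc lay near the top of the arrays' range.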
